A study of Mus musculus with 3 samples.

Results

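The genes described here are 8 genes of sympathoadrenal cells, the neural crest derivatives that become sympathetic neurons and the chromaffin cells of the adrenal medulla. They are Th, Dbh, Ddc, Slc18a1, Chga, Chgb, Phox2a and Hand2, chosen by name, out of 19938 genes on the array that could be named by a single symbol. All 8 were measured, each by 1 probe set annotated to that symbol alone. They were followed in kidney rudiments of C57BL/6 mouse embryos of embryonic day 11.5, laid on a Transwell filter and kept there for 48 h. The explants grew in serum-free DMEM with retinoic acid, the active derivative of vitamin A (dose not given in the sources used here), in serum-free DMEM, or in DMEM with 10% fetal bovine serum. Each medium is represented by 1 Affymetrix Mouse Gene 1.0 ST array, and strain, age and culture time were the same for all 3. The number of embryos behind an array and their sex are not given in the labels.

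With 1 array per medium there were no replicates, so no difference has an error or a p-value, and precision is limited by the number of arrays. Levels are log2 intensities. A difference was called when it was at least 2-fold and the higher of its values reached a floor of 7.12, the median of all gene values. The tissue label was checked on 12 genes of the developing kidney, among them Six2, Osr1, Lhx1 and Emx2. Of the 12, all 12, 11 and 12 reached the floor with retinoic acid, in serum-free medium and in serum. Lhx1, at 6.79, was under it in serum-free medium. Of all 19938 genes, 9947, 9969 and 10007 reached it on the same arrays. Sex-linked transcripts differed between the arrays. Xist, transcribed from the inactive X chromosome, was at 9.79 with retinoic acid, 11.48 in serum-free medium and 10.84 in serum. The Y-linked gene Eif2s3y was at 8.64, 7.46 and 8.38 on the same arrays, Kdm5d at 8.40, 7.21 and 7.74, and Uty at 8.38, 7.29 and 7.93. The make-up of the explants by sex therefore cannot be told apart from the medium.

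Catecholamines are made from tyrosine in a short chain of steps. Tyrosine hydroxylase (Th) performs the rate-limiting step to DOPA, the aromatic amino acid decarboxylase (Ddc) turns DOPA into dopamine, and dopamine beta-hydroxylase (Dbh) turns dopamine into noradrenaline inside storage vesicles. The vesicular monoamine transporter VMAT1 (Slc18a1) loads those vesicles, and the acidic granins chromogranin A (Chga) and secretogranin 1, also called chromogranin B (Chgb), are packed in them with the amines. The homeodomain factor Phox2a and the basic helix-loop-helix factor Hand2 take part in the specification of sympathetic precursors and in switching on Th and Dbh. In the embryo the sympathetic ganglia and the adrenal primordium lie close to the kidney. Ddc is also known from kidney tubules and Hand2 from several mesenchymes, so neither is restricted to sympathoadrenal cells.

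The sequences just upstream of the transcription start are shown for 4 of these genes: Dbh, Th and Chga, which had the largest differences between media, and Chgb, which shares an element with Th. They are the 160 bases before the start in RefSeq (GRCm38.p6), at chr2:27165347-27165506 on the + strand for Dbh, chr7:142899996-142900155 on the - strand for Th, chr12:102554781-102554940 on the + strand for Chga and chr2:132781482-132781641 on the + strand for Chgb. Capitals mark TGACG, the core of the cAMP response element, and ATTA, the core bound by many homeodomain factors, on either strand.
Dbh: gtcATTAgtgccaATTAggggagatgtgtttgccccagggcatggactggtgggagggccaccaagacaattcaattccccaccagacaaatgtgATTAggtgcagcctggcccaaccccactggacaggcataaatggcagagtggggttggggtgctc
Th: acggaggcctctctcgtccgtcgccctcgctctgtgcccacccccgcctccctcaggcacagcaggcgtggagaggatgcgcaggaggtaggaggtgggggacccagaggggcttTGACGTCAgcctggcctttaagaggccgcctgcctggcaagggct
Chga: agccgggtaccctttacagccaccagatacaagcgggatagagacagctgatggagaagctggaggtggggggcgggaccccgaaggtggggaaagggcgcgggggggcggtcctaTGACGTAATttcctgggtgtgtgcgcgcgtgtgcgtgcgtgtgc
Chgb: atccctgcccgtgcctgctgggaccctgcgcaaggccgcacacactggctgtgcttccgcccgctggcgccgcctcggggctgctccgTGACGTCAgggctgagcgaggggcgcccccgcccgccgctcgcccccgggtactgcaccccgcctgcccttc

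Promoters of 7 of the 8 genes were in the RefSeq table, which holds 250 bases before and 50 after each start, and Ddc had 2. Each motif was searched on both strands. The full cAMP response element TGACGTCA, which contains TGACG, began 45 bases before the start of Th and 72 bases before that of Chgb. It was in 1.79% of 32851 promoters. Chga carried the variant TGACGTAA 44 bases before its start, a motif added after the sequence was read and found in 0.499% of promoters, where the capitals run on because an ATTA on the opposite strand overlaps it. Hand2 had TGACG 37 bases before the start and Dbh 222 bases before it, while the Ddc and Phox2a windows did not hold it. TGACG was in 20.8% of promoters. In Dbh, ATTA began 157, 147 and 65 bases before the start, and 58% of promoters had at least 1. The hexamer AGGTCA, recognised by retinoic acid receptors, was in 16.3% of promoters and, among these genes, in 1 of the Ddc windows, on the opposite strand. The related AGTTCA, in 14% of promoters, was also found in a Ddc window and in no other of the 7 genes. A match in so short a window is a description of the letters and not evidence of a bound site.

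The first comparison asked how these genes differed with retinoic acid in medium without serum. The enzyme genes Dbh and Th, the transporter gene Slc18a1 and the granin gene Chga were lower by 2-fold or more in the explants given retinoic acid, 4 of the 8 genes, and 0 were higher. In the background of 10111 genes reaching the floor, 0.613% were lower by that size and 1.05% were higher. The median difference of the 8 genes was -1.01, against 0 for all genes at or above the floor. Of the 8 genes, 6 reached the floor in this comparison and could be called. Th, Slc18a1 and Phox2a did so only in serum-free medium, where they were highest, which favours a call as lower. In bulk RNA, fewer cells of a type and less RNA per cell cannot be told apart.

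Among the synthesis enzymes, Dbh (probe set 10470412) had an intensity of 144 with retinoic acid, against 629 in serum-free medium and 297 in serum. On the log2 scale these were 7.17, 9.30 and 8.21, so the retinoic acid value lay just over the floor. With retinoic acid Dbh was 4.38-fold lower than in serum-free medium (-2.13), the second lowest difference of the genes at or above the floor. Th (probe set 10569370) was at 6.10 with retinoic acid, 7.60 in serum-free medium and 6.69 in serum. It was 2.83-fold lower with retinoic acid than without (-1.50), and as the retinoic acid and serum values lay under the floor, where background takes up more of the signal, the size is uncertain. Adding 32 to all intensities, which damps low values, brought it to -1.17. Ddc (probe set 10384378) stood apart from the other enzymes, at 7.02 with retinoic acid, 7.02 in serum-free medium and 6.94 in serum, all under the floor. The first pair of values was exactly equal, as for 51.6% of all genes on these arrays. Median polish, the last step of the authors' RMA summary, can return equal values for unequal signals, so an exact tie does not show equal expression.

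Of the vesicle genes, Chga (probe set 10397882) had log2 levels of 7.61 with retinoic acid, 9.45 in serum-free medium and 8.13 in serum. It was 3.60-fold lower with retinoic acid than in serum-free medium (-1.85), and its values reached the floor on all arrays. Slc18a1 (probe set 10579023) was at 6.14, 7.44 and 6.77 on the same arrays, of which only the serum-free value reached the floor. Its difference of -1.29 became -0.999 with 32 added to the intensities, just short of 2-fold, which left 3 of the 8 genes lower. Chgb (probe set 10476355) lay under the floor throughout, at 6.39 with retinoic acid, 6.94 in serum-free medium and 6.59 in serum. Its difference of -0.56 had the sign of that of Chga and was smaller.

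The transcription factor genes had smaller differences than Dbh, Th or Chga. Phox2a (probe set 10555570) was at 6.88 with retinoic acid, 7.60 in serum-free medium and 7.06 in serum, a difference of -0.72 between retinoic acid and serum-free medium, or 1.65-fold. Hand2 (probe set 10571860) was at 7.66, 8.33 and 7.88 on these arrays, a difference of -0.67, or 1.59-fold. At a size of 1.5-fold, 6 of the 8 genes were lower with retinoic acid, these 2 included, against a background of 1.94%. Phox2a, like Th and Slc18a1, reached the floor only in serum-free medium, and such a selection favours a call as lower.

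**Figure D1:**
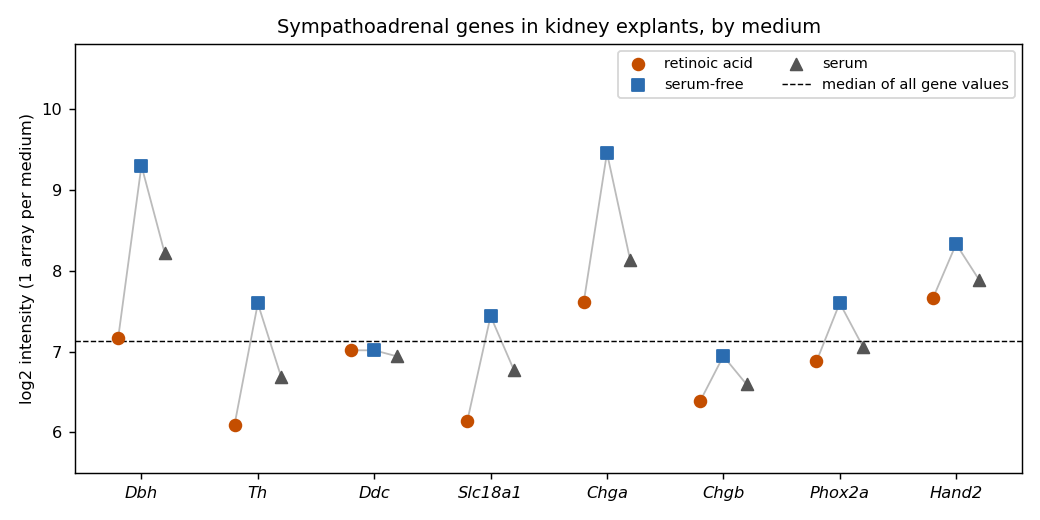
Log2 intensity (vertical axis) of the 8 genes on the array of each medium, with circles for retinoic acid, squares for serum-free medium and triangles for serum, 1 array each, and a dashed line at the floor of 7.12. In 7 genes the serum-free array was the highest and the retinoic acid array the lowest, while the 3 values of Ddc lay within 0.08 of each other.

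The second comparison asked how the same genes differed between serum-free medium and serum. Chga was 2.51-fold higher in serum-free medium than in serum (1.33) and Dbh 2.12-fold higher (1.08), 2 of the 8 genes, with 0 lower. In the background of 10156 genes reaching the floor, 0.876% were higher by that size and 0.699% were lower. The median difference of the 8 genes was 0.60, against -0.0041 for all genes at or above the floor. Here too, 6 of the 8 genes reached the floor and could be called. Th had a difference of 0.91, Slc18a1 of 0.66, Phox2a of 0.54, Hand2 of 0.45, Chgb of 0.35 and Ddc of 0.08, none of which reached 2-fold. At 1.5-fold, 4 of the 8 genes were higher (background 2.01%), with Th at 1.87-fold and Slc18a1 at 1.59-fold joining Chga and Dbh. Th and Slc18a1 reached the floor only in serum-free medium, where they were highest. Such a selection favours a call as higher, so their part in this count is no separate support.

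The third comparison set retinoic acid without serum against serum. Dbh was 2.07-fold lower with retinoic acid (-1.05) and was the only one of the 8 genes to differ 2-fold, against a background of 0.816% of 10169 genes lower and 1.04% higher. With 32 added to the intensities its difference was -0.91, which left 0 of the 8 genes past 2-fold. The other differences were -0.63 for Slc18a1, -0.59 for Th, -0.52 for Chga, -0.23 for Hand2, -0.21 for Chgb, -0.18 for Phox2a and 0.08 for Ddc. The median was -0.37, against -0.0053 for all genes at or above the floor. Only Dbh, Chga and Hand2 reached the floor in this comparison and could be called, and their median was -0.52. The serum-free and retinoic acid arrays therefore lay on opposite sides of the serum array for 7 of the 8 genes, with serum-free medium the highest. That order was seen in 3.65% of all 19938 genes. In the 10241 genes with a value at or above the floor on any array, a set without Chgb and Ddc, it was 5.24%. Genes with an exact tie, 45.4% to 51.6% of all genes per comparison, cannot have this order. As the 3 comparisons share their arrays, they are not separate observations of these genes.

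**Figure D2:**
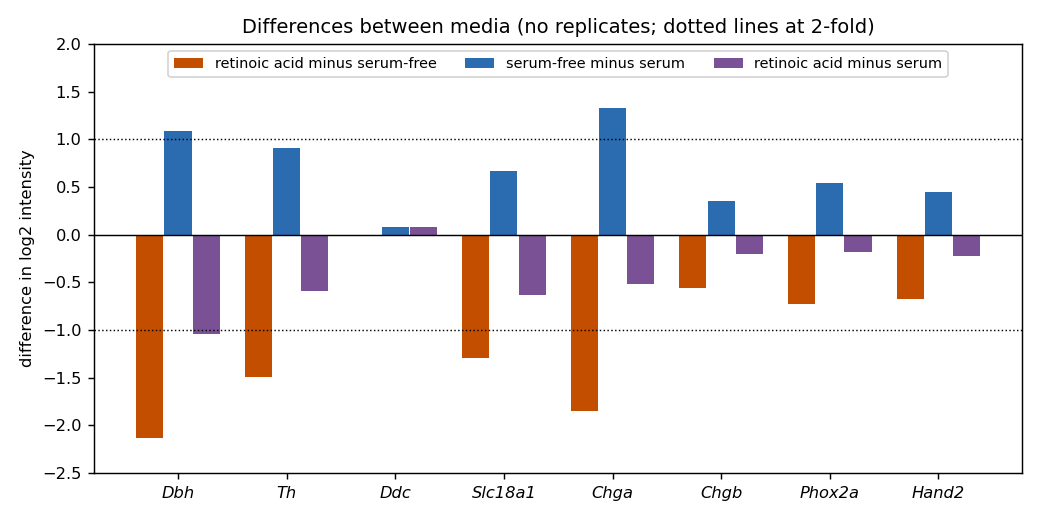
Difference in log2 intensity (vertical axis) of each gene for retinoic acid minus serum-free medium, serum-free medium minus serum and retinoic acid minus serum, 1 array each, with dotted lines at 2-fold. The bars for retinoic acid minus serum-free medium pass the lower line in Dbh, Th, Slc18a1 and Chga, and those for serum-free medium minus serum pass the upper line in Dbh and Chga. Of the bars for retinoic acid minus serum, that of Dbh passes the lower line.

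Among the other measured genes of the catecholamine pathway no 2-fold difference was seen. Apart from the 8 genes, 13 genes for cofactor supply, storage, uptake and breakdown were measured, and 0 of them differed 2-fold in any of the 3 comparisons. Their median difference between retinoic acid and serum-free medium was -0.04. Only 7 of the 13 reached the floor in each comparison, and over these 7 that median was 0. Pcbd1, which encodes a dehydratase that recycles the tetrahydrobiopterin cofactor of tyrosine hydroxylase, was at 10.23 with retinoic acid, 10.69 in serum-free medium and 11.00 in serum. Maoa, which encodes an amine-degrading oxidase, was at 8.19, 8.38 and 8.33. Several further genes of aminergic cells were under the floor on all arrays, and are named here after their values were seen. Slc18a2, the monoamine transporter VMAT2 that prevails in neurons, was at 6.50, 6.71 and 6.48. The noradrenaline uptake transporter gene Slc6a2 was at 5.67, 5.72 and 5.72, and Pnmt, whose enzyme makes adrenaline, at 5.31 on each array. None of 7 measured adrenergic and dopamine receptor genes reached the floor.

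Among other transcription factors of the lineage, 12 were measured apart from Phox2a and Hand2. With retinoic acid 3 of the 12 were at least 2-fold lower than in serum-free medium and 1 was higher, with a median of -0.49. The list is not restricted to sympathoadrenal cells, as Eya1, at -0.50, is also one of the kidney genes used to check the tissue. Hand1, a close relative of Hand2, was at 6.52 with retinoic acid, 7.90 in serum-free medium and 7.23 in serum, a difference of -1.38 for retinoic acid. Tfap2b had a difference of -1.70 (6.56 with retinoic acid against 8.25) and Tfap2a of -1.02 (7.87 against 8.89). With retinoic acid, Hand1 and Tfap2b lay under the floor, so the sizes of their differences are uncertain. Unlike the 8 genes, Tfap2b was highest in serum, at 8.51. Gata2 was the higher one, at 11.02 with retinoic acid against 9.88 in serum-free medium (1.14). Insm1, a zinc finger factor of endocrine and sympathoadrenal precursors, was at 7.41, 8.11 and 7.48 with retinoic acid, in serum-free medium and in serum, and Prox1 at 6.63, 7.44 and 6.68, in both cases under 2-fold. Without serum, 0 of the 12 differed 2-fold from serum, and with retinoic acid against serum 1 was lower, Tfap2b at -1.96.

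Dense core vesicle genes as a group did not have the difference of Chga. Of 16 measured apart from Chga, Chgb and Dbh, 0 differed 2-fold in any comparison, and their median for retinoic acid against serum-free medium was 0.0013. In that comparison 10 of the 16 reached the floor, with a median of 0.03. Snap25, which encodes a membrane fusion protein of regulated secretion, was at 7.87 with retinoic acid, 8.59 in serum-free medium and 8.04 in serum, while the enkephalin precursor gene Penk was at 10.90, 10.90 and 10.61. The vesicle calcium sensor gene Syt1 had its highest value with retinoic acid, at 8.09, against 7.88 in serum-free medium and 7.49 in serum.

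Genes of neuronal surface and structure went several ways. Of 25 measured, 2 were at least 2-fold higher with retinoic acid than in serum-free medium and 0 were lower, with a median of 0. Between serum-free medium and serum their median was 0.35, with 18 differences above 0 and 4 under it, beside 0.60 for the 8 genes. Stmn2, which encodes a microtubule regulator of growing axons, was at 11.49 with retinoic acid, 10.15 in serum-free medium and 9.75 in serum. The other was Ret, a receptor gene that in the kidney also marks the ureteric tip. Chrna3 and Chrnb4, which encode the nicotinic receptor subunits of autonomic ganglia, were 8.68 and 7.21 with retinoic acid, 8.09 and 6.48 in serum-free medium and 7.52 and 5.93 in serum. With Stmn2 they made up the 3 genes at least 2-fold higher with retinoic acid than in serum, at 1.16, 1.29 and 1.73. Gfra3, which encodes the artemin receptor of sympathetic precursors, was at 7.98 with retinoic acid, 8.84 in serum-free medium and 7.77 in serum. It was the 1 gene of this list at least 2-fold higher in serum-free medium than in serum (1.08), while Ret was the 1 that was lower (-1.16). For retinoic acid against serum-free medium the difference of Gfra3 was -0.86 and that of the neurturin receptor gene Gfra2 -0.80, both short of 2-fold.

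**Figure D3:**
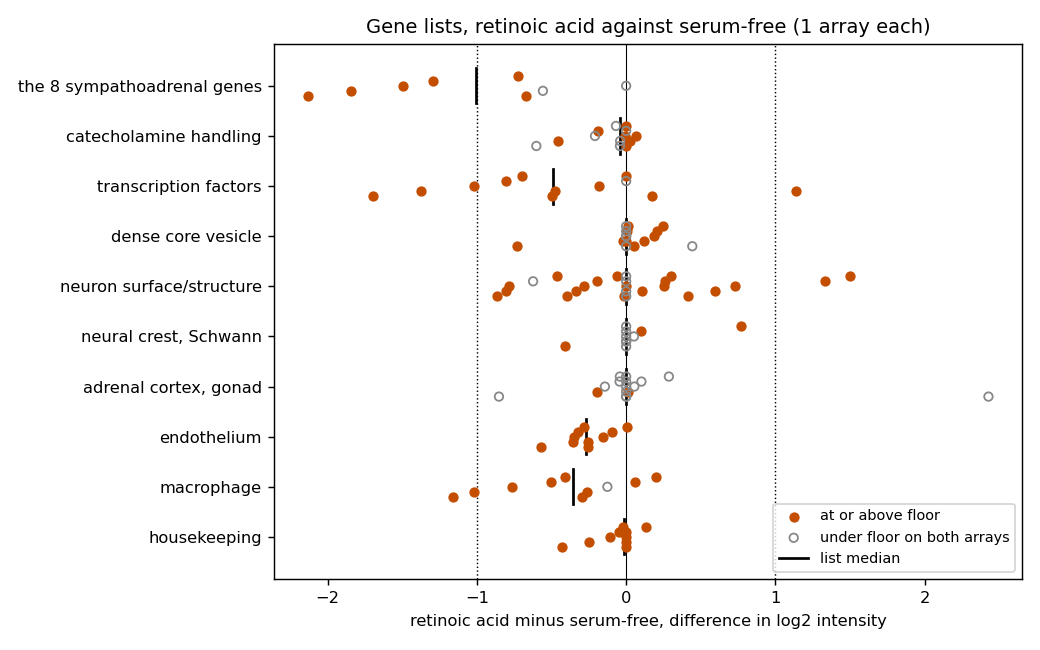
Difference in log2 intensity between retinoic acid and serum-free medium (horizontal axis) for each gene of 10 lists, with the 8 genes on the top row and left out of the rows under it. Filled points reached the floor on at least 1 of the 2 arrays, open points did not, and the black bars are list medians, at -1.01 for the 8 genes and -0.49 for the other transcription factors. The transcription factor row includes Eya1, which is also one of the kidney genes used to check the tissue.

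Markers of other cells were set beside these values. Of 10 neural crest and Schwann cell precursor genes 3 reached the floor on any array, 0 differed 2-fold, and the glial precursor factor gene Sox10 was at 6.26 on each array. Of 16 adrenal cortex and gonad genes only 4 reached the floor on any array and could be called, and 0 were called in any comparison. Nr5a1, the factor gene that defines steroid-producing cells, was under the floor at 6.14 with retinoic acid, 6.09 in serum-free medium and 6.14 in serum. The cholinergic, enteric and serotonergic list had 0 of 10 genes past 2-fold, but only 1 reached the floor on any array. This was the acetylcholine transporter gene Slc18a3, at 7.89, 6.96 and 7.01. Among 10 proximal tubule genes, the water channel gene Aqp1, which is also found in endothelium and red cells, was the 1 that reached the floor, at 6.74 with retinoic acid, 8.04 in serum-free medium and 7.17 in serum. It was 2.46-fold lower with retinoic acid than in serum-free medium (-1.30) and had the same order of media as 7 of the 8 genes. The summed intensity of 10 macrophage genes was 5640 with retinoic acid, 7759 in serum-free medium and 2531 in serum, and 9 of the 10 were at least 2-fold higher in serum-free medium than in serum. These were Mrc1, Cd68, C1qc, C1qb, C1qa, Csf1r, Adgre1, Cx3cr1 and Fcgr1, with differences between 1.03 and 1.95. With retinoic acid against serum, Csf1r, C1qa, C1qb and C1qc were higher by that size. In retinoic acid against serum-free medium 2 of these 10, Cd68 at -1.16 and Mrc1 at -1.02, were lower. That of 10 endothelial genes was 9254, 10924 and 7619, with 0 past 2-fold. These lists were also highest in serum-free medium, but unlike 7 of the 8 genes they were lowest in serum, and their part in the results was not tested. In the list of 12 kidney genes, Ret and Lhx1 were at least 2-fold higher with retinoic acid than in serum-free medium and lower in serum-free medium than in serum. Of 10 housekeeping genes 0 differed 2-fold, with a median of -0.01 for retinoic acid against serum-free medium.

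Genes close to Dbh over the 3 media were sought among 10240 other genes with a value at or above the floor. The measure was the root mean square distance, in log2 units over the 3 arrays, between values centred on each gene's mean. Values were not scaled, so the distance counts the size of the differences as well as their shape. Chga was the fourth nearest, at 0.22, Th the eighth, at 0.27, and Slc18a1 the eighteenth, at 0.34. Phox2a and Hand2, with smaller differences than Dbh, ranked 98 and 111. Chgb, at 0.64, and Ddc, at 0.87, were under the floor and not ranked. The 8 nearest named genes besides these were Gja5, which encodes a connexin of arteries, at 0.10, the chemokine gene Ccl11 at 0.15, Xist at 0.21, the nephron progenitor gene Cited1 at 0.22, Lix1 at 0.23, Lilr4b at 0.25, and Cacng3 and the muscle actinin gene Actn3 at 0.27 each. Gja5 was at 7.97 with retinoic acid, 9.86 in serum-free medium and 8.87 in serum. With 3 arrays many genes can share a shape, and this list holds genes of unlike cell types.

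**Figure D4:**
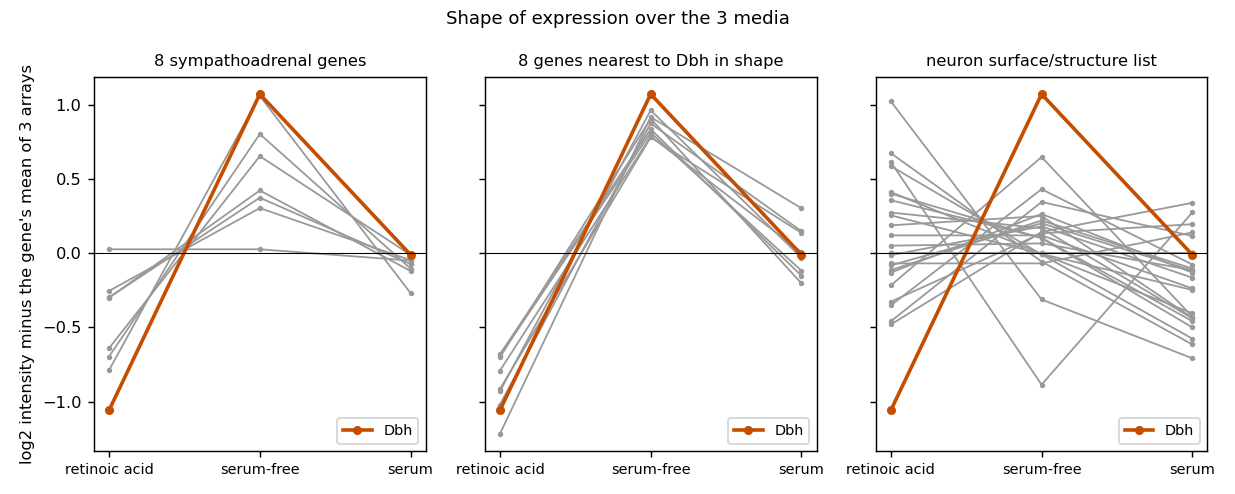
Log2 intensity minus the gene's mean over the 3 arrays (vertical axis) in retinoic acid, serum-free medium and serum. The panels hold the 8 genes, the 8 genes nearest to Dbh by unscaled distance and the 25 measured genes of neuronal surface and structure. Dbh is the thick line in each panel. The first 2 panels peak in serum-free medium except for Ddc, while the neuronal genes go several ways, with Stmn2 the highest line at retinoic acid and Ret the lowest at serum-free medium.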

How the data were processed

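RNA of explants from 3 media was hybridised to 1 array each. The authors deposited linear intensities, 1 per probe set. The submitters' processing notes name RMA and Affymetrix Expression Console 1.1. RMA corrects for background, gives all arrays 1 distribution and fits probe sets by median polish, so small differences can be returned as 0. Neither the settings nor a genome build is given in the sources used.

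Log2 of the deposited intensities was taken without a pseudocount. Of 35556 probe sets, 21789 carried 1 gene symbol, 1621 several and 12146 none in the platform annotation; the last 2 kinds were left out. The probe set with the highest mean represented a gene. The size rule (2-fold, higher value at or above the floor) was applied to all genes, with Python 3.11.15. Its code was run on simulated data, with differences planted only in genes well over the floor and with little noise. That run checks the code and does not bear on calls of genes near the floor. No test was possible with 1 array per medium.

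The 8 genes and the 13 other lists were chosen with earlier results of these data known, so their agreement with those results is no independent support. Named genes were taken from the 8, the up to 4 largest differences per list and comparison at or above the floor, any list gene past the size rule, and the 8 nearest to Dbh, leaving out gene models. Exceptions are marked, and Sox10 and Nr5a1 were named as defining markers. Alternatives were 32 added to the intensities, cyclic loess (limma 3.58.1), median centring, the mean of probe sets, other floors and a 1.5-fold rule.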

Additional observations from a re-analysis of the deposited data

How the results depend on the processing

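No paired analysis was possible because each medium has 1 array, and for the same reason no array could be left out. Of 96 values of single genes under 32 added to the intensities, cyclic loess, median centring or the mean of probe sets, 0 turned their direction and 94 moved by less than the 95th percentile of disagreement between probe sets of a gene (0.27 for retinoic acid against serum-free medium). The exceptions were Th at -1.17 and Slc18a1 at -0.999, with 32 added. The mean of probe sets could not change the 8 genes, which have 1 probe set each. For retinoic acid against serum-free medium, a floor at the upper quartile (8.91) left 2 of the 8 genes past 2-fold, Dbh and Chga, of 81 genes in all (168 with the floor at the median), and a 1.5-fold rule gave 440 genes in all. The median of the 8 genes was -1.40 over the 6 at or above the floor. Of these, Th, Slc18a1 and Phox2a reached the floor only in serum-free medium, where they were highest. Such a selection favours a negative median, so this value is no check of the size. For serum-free medium against serum, the 1.5-fold rule gave 4 of the 8 genes (2 at 2-fold) and 414 genes in all (160 at 2-fold), and the upper quartile floor gave 72 genes in all. For retinoic acid against serum, the count of the 8 genes was 0 with 32 added and 0 with the upper quartile floor (1 otherwise at 2-fold), and the count of all genes was 86 with that floor and 539 at 1.5-fold (189 at 2-fold). The fewer calls with a higher floor follow from fewer genes being eligible. Signal over background limits Th, Slc18a1, Ddc, Chgb and Phox2a most.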

Other observations

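Among adrenal genes below the floor, Mc2r, which encodes the adrenocorticotropic hormone receptor, was at 7.07 with retinoic acid, 4.65 in serum-free medium and 6.38 in serum, the reverse of the order seen in Dbh. Nr0b1, a nuclear receptor gene of steroid-producing tissue, was at 5.09, 5.94 and 6.76 on the same arrays. Both were chosen after their values were seen, and at such levels the sizes are uncertain.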
